A study of Mus musculus with 20 samples.

Results

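The genotype by IFNγ interaction in BV-2 microglial cells is the gene-by-gene difference between the interferon gamma (IFNγ) response of RGS10 knockout cells and that of wild-type cells. For each gene, the log2 change with IFNγ in knockout (KO) cells had the log2 change in wild-type (WT) cells subtracted from it, so a positive value means a response that was more positive in KO cells. All 20 libraries of the series entered the comparison, with 5 in each of 4 groups: KO with IFNγ, KO with vehicle, WT with IFNγ and WT with vehicle. BV-2 is an immortalized line of mouse microglia, and the KO cells are labelled as an RGS10 knockout of the same line. How many KO clones there were, and how the gene was disrupted, is not given in the sources used here. Loss of RGS10 and other differences between the KO and WT cells therefore cannot be told apart. IFNγ was given at 10 ng/mL and vehicle was culture medium, both for 48 h, and poly(A)-enriched RNA was sequenced. Replicates 1 to 3 were labelled batch 1, replicate 4 batch 2 and replicate 5 batch 3, in every group alike, and what a batch stands for is not given. The labels call them biological replicates without describing the cultures, so p-values measure the spread among these libraries, which may in part be technical. The fit counted all 5 libraries of a group as independent, although 3 of them share batch 1. The question addressed is whether the RGS10 knockout cells answer IFNγ to a different degree, or in a different direction, than the wild-type cells.

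IFNγ binds the receptor chains IFNGR1 and IFNGR2, which carry the kinases JAK1 and JAK2, and the transcription factors it induces, such as IRF1, switch on antigen presentation, antimicrobial GTPases and inflammatory mediators. In macrophages and microglia the same cytokine slows proliferation and lowers sterol synthesis. RGS10 is a GTPase-activating protein that shortens signalling by the Gαi class of G proteins, which carry signals from chemoattractant receptors, and it is abundant in microglia.

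Libraries held 15866749 to 29157740 counts, and 13755 genes passed the filter on low counts. Rgs10 itself had 21.1, 17.8, 17.1, 50.5 and 15.5 CPM (counts per 1000000 counts of the scaled library) under IFNγ and 30.3, 25.6, 28.2, 34.6 and 22.6 with vehicle in KO cells, replicates 1 to 5 in that order, against 23.3, 22.2, 23.7, 49.97 and 28.7 under IFNγ and 55.1, 59.9, 64.5, 73.0 and 62.7 with vehicle in WT cells. Every KO vehicle library lay below every WT vehicle library (exact two-sided permutation p = 0.0079 over 252 splits, the smallest they can give), while under IFNγ the lines overlapped over all batches (p = 0.37, a test that does not use batch). Within batches, KO IFNγ libraries lay below WT IFNγ libraries in batches 1 and 3 and were level with them in batch 2. The fit with batch gave a KO minus WT difference under IFNγ of -0.33 ± 0.17 log2 (SE; adjusted p = 0.134). The library labelled KO IFNγ replicate 4 was the highest KO library and as high as its WT counterpart of the same batch. Reads from Rgs10 were present in every KO library, and RNA does not show whether protein was made. Of 67 other genes that separated the lines over 3 log2 units under both treatments in batch 1, 94.0% to 100% lay nearer the labelled line in each library of batches 2 and 3. Libraries of IFNγ-treated cells from batches 2 and 3 stood apart in both lines: Malat1, a nuclear RNA, was at 1143 CPM or more there and at most 152 CPM in every vehicle library. Their library scaling factors (TMM) were 0.892 and 0.879 in KO and 0.635 and 0.764 in WT cells, against 1.01 to 1.12 elsewhere. The 10 highest genes held 9.46% to 17.1% of their counts, against at most 7.86% elsewhere. All 12 macrophage and microglia markers listed were expressed, with summed levels of 5910 to 6470 CPM in KO IFNγ, 3960 to 4410 in KO vehicle, 7240 to 9410 in WT IFNγ and 5880 to 7850 in WT vehicle libraries. Summed levels in any library were at most 0.994 CPM for fibroblast, 1.3 for astrocyte, 3.4 for T and B cell and 7.47 for oligodendrocyte markers. They reached 15.8 CPM for neuron, 24.8 for neutrophil and 79.8 for dendritic cell markers.

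The IFNγ response was weaker in KO cells for most genes at which the responses differed. At an adjusted p under 0.05, 894 of 13755 genes (6.50%) were called, 500 of them (3.64% of genes tested) more positive and 394 (2.86%) more negative in KO cells. Among these, 384 fell less in KO cells and 345 rose less, together 81.5% of the calls, while 86 rose more and 31 fell more. These classes go by the called response: the other line's estimate had the opposite sign, without a call, in 63 of the 384, 74 of the 345, 27 of the 86 and 19 of the 31. In 47 genes (5.26% of calls) the responses ran in opposite directions with both called. The remaining gene, Rnf186, had a call in neither line. The counts of the gene lists described further on are read against these shares. The absolute difference exceeded 1 log2 unit for 473 genes and 2 units for 132. Over all tested genes the median absolute response was 0.474 in KO and 0.667 in WT cells. Within batches it was 0.299 in KO and 0.559 in WT cells in batch 1, 0.708 and 0.815 in batch 2, and 0.668 and 0.713 in batch 3.

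The lines differed in level mainly under IFNγ for genes with a weaker KO response. For genes with a larger KO rise they differed with vehicle only more often than under IFNγ only. Of all 13755 tested genes 21.1% differed between the lines under IFNγ only, as did 54.3% of the 894 called genes. Of the 384 genes that fell less, 248 (64.6%) differed under IFNγ only. In KO cells under IFNγ 304 of the 384 were higher, as were 2754 of all tested genes (20%). Of the 345 that rose less, 190 (55.1%) differed under IFNγ only, a share near that of all called genes. Under IFNγ 252 of the 345 were lower in KO cells, against 19.0% of all tested genes. The 86 with a larger rise were laid out differently: 35 (40.7%) differed with vehicle only, against 9.35% of all tested genes, 33 under both treatments and 18 under IFNγ only. In KO vehicle libraries 65 were lower, against 14.8% of all tested genes. Under IFNγ 24 of the 86 were lower and 27 higher in KO cells. The median KO-to-WT ratio was -1.54 log2 with vehicle and 0.149 under IFNγ. For 22 of those 86, the gain in mean CPM was smaller in KO cells although the log2 gain was larger. Differences in CPM and in log2 had opposite signs for 14.2% of all tested and 4.14% of all called genes. The interaction and these level comparisons use the same libraries and are a description of one another.

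Batch weighed on the number of genes called. Fitted on batch 1 alone, 7096 of 13833 tested genes were called, and on batches 2 and 3 alone 121 of 14288. Without the 4 IFNγ libraries of batches 2 and 3, 5371 of 14143 were called. Spread beyond counting error, as a common coefficient of variation, was 5.89% on batch 1 alone and 28% on batches 2 and 3 alone. With all 20 libraries it was 24.2%. Leaving out single libraries gave between 542 calls (without KO vehicle replicate 1) and 1448 (without KO IFNγ replicate 4). Of 95 called genes described here, 77 kept their direction without a call on batches 2 and 3 alone, and 58 without a batch term in the fit. Of the 894 genes, 886 were called with the same sign in batch 1 alone and 53 in batches 2 and 3 alone, and 473 (52.9%) were called in all 20 fits that left out 1 library. Batch 1 supplied 12 of the 20 libraries behind the 894 calls, so the 886 are not an independent check. Within-batch differences shared their sign in all 3 batches for 780 of the called genes (87.2%) and for 31.6% of all tested genes, a description since the calls rest on the same libraries. Across all tested genes, which are not independent replicates, the difference correlated weakly between batches. Pearson's r was 0.197 for batches 1 and 2, 0.133 for 1 and 3 and 0.366 for 2 and 3. The same r between batches was 0.671 to 0.771 for the KO response and 0.685 to 0.829 for the WT response.

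**Figure D1:**
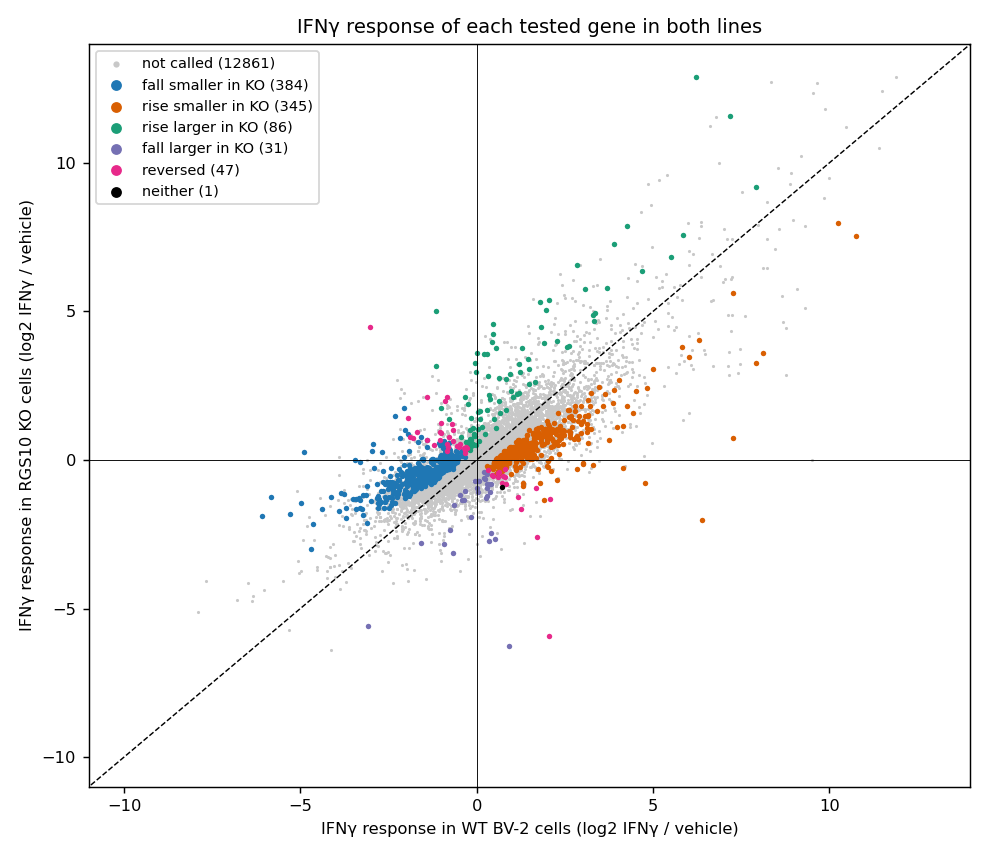
IFNγ response in KO cells (vertical, log2) against that in WT cells (horizontal, log2), 1 point per tested gene, coloured by how the called responses differ. The dashed line marks equal responses: the 384 genes that fell less lie above it on the left and the 345 that rose less lie below it on the right.

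Among genes of receptor-proximal IFNγ signalling, Jak1 rose less in KO than in WT cells. Of 21 tested members of the receptor, JAK, STAT and SOCS list, 1 was more positive and 1 more negative in KO cells, with a median difference of -0.014 beside 0.0184 over all genes. Jak1, the kinase on IFNGR1, had 239, 249, 257, 197 and 448 CPM under IFNγ and 164, 161, 164, 142 and 146 with vehicle in KO cells, against 492, 457, 433, 1042 and 631 under IFNγ and 162, 166, 153, 151 and 162 with vehicle in WT cells. Vehicle levels overlapped, both lines rose without overlap, and each KO IFNγ library lay below the WT libraries of its batch. Jak1 responses of 0.81 in KO and 1.91 in WT cells differed by -1.10 ± 0.29 (SE; adjusted p = 0.0273), and by -0.91, -2.31 and -0.34 within batches 1, 2 and 3. That call was lost without WT vehicle replicate 4 or 5, or any batch 1 library of KO vehicle or KO IFNγ, and the difference then ranged from -1.30 to -0.80 over all 20 such fits. Rgs10 fell by 1.17 in WT cells and its KO response was -0.33, a difference of 0.84 ± 0.24 (adjusted p = 0.0436) that lost its call in 15 of 20 fits without 1 library (it was called without KO IFNγ replicate 5, KO vehicle replicate 1, WT IFNγ replicate 4 or 5, or WT vehicle replicate 4), over a range of 0.62 to 0.95. The difference for Ifngr1 was 0.20 ± 0.16, for Ifngr2 -0.28 ± 0.17 and for Jak2 -0.01 ± 0.31, none of them called. Socs1, the feedback inhibitor of JAK kinases, differed by 0.57 ± 0.54 (adjusted p = 0.589).

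The transcription factors Irf1, Irf8 and Batf2 rose in both lines, and Batf2 started lower in KO cells. Among 15 tested IRF and BATF factors, 1 was more positive and 2 more negative, with a median of 0.00524. Leaving out 1 library moved the count more negative over 1.5 times in 11 of 20 fits, between 0 (without WT IFNγ replicate 5) and 3 (without KO vehicle replicate 5). Batf2, an AP-1 family factor induced by interferon in macrophages, had 38.5, 41.5, 43.2, 26.5 and 51.8 CPM under IFNγ and 0.541, 0.161, 0.388, 0.194 and 0 with vehicle in KO cells, against 48.0, 49.8, 49.0, 59.3 and 45.5 under IFNγ and 3.98, 3.55, 4.41, 2.48 and 2.80 with vehicle in WT cells. KO vehicle libraries all lay below WT vehicle libraries, and under IFNγ the lines overlapped. Batf2 responses of 7.25 in KO and 3.89 in WT cells differed by 3.36 ± 0.44 (adjusted p = 0.00020), and by 2.14, 0.95 and 2.91 within batches 1, 2 and 3. For Irf1 the difference was -0.37 ± 0.40 (adjusted p = 0.654) with 896 ± 432 CPM in KO and 1182 ± 596 in WT IFNγ libraries (SD, n = 5 each). The difference for Irf8 was 0.74 ± 0.45 (adjusted p = 0.366).

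Class I antigen presentation genes rose in both lines: 23 of 25 rose in KO and 24 in WT cells, beside 21.4% of all tested genes in KO and 29% in WT cells. In this MHC class I and immunoproteasome list 2 were more positive and 1 more negative in KO cells, with a median of 0.0616. On batch 1 alone, where 7096 of 13833 genes were called, these counts were 16 and 6. Without the IFNγ libraries of batches 2 and 3, where 5371 of 14143 genes were called, the counts were 13 and 2. Psmb9, a catalytic subunit of the immunoproteasome, had 225, 210.4, 214, 228 and 122 CPM under IFNγ and 41.8, 37.4, 40.9, 27.3 and 23.9 with vehicle in KO cells, against 129.9, 134, 130.4, 111 and 133 under IFNγ and 43.2, 42.6, 53.8, 39.3 and 48.0 with vehicle in WT cells. KO cells were higher than WT under IFNγ in batches 1 and 2 and lower in batch 3, and lower with vehicle in every batch. Psmb9 rose by 2.55 in KO and 1.49 in WT cells, a difference of 1.06 ± 0.21 (adjusted p = 0.0044) with 0.92, 1.55 and 0.87 within batches. H2-Q7, a class I gene whose reads may be shared with near-identical neighbours, differed by 1.59 ± 0.29 (adjusted p = 0.0029). Tapbpl, which edits peptides on class I, rose less, by 2.69 in KO and 4.03 in WT cells. The difference for Nlrc5, the class I transactivator, was 0.35 ± 0.19 (adjusted p = 0.296).

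Of 14 tested MHC class II genes 8 rose in KO and 9 in WT cells, while 1 was more positive and 1 more negative, with a median of -0.182. Cd74, the invariant chain of class II, had 418, 381, 404, 1031 and 707 CPM under IFNγ and 144, 143, 135, 180.0 and 123 with vehicle in KO cells, against 1428, 1523, 1439, 9309 and 3724 under IFNγ and 145, 122, 138, 435 and 459 with vehicle in WT cells. Every KO IFNγ library lay below every WT IFNγ library, and the WT libraries of batches 2 and 3 were the highest with either treatment. Cd74 rose by 1.81 in KO and 3.58 in WT cells, a difference of -1.77 ± 0.39 (adjusted p = 0.0096) and -1.93, -1.90 and -0.50 within batches. H2-Aa, a class II alpha chain, had 21.3, 20.8, 19.9, 48.6 and 35.2 CPM under IFNγ in KO cells and no read in any KO vehicle library, against 70.0, 77.3, 71.1, 991 and 291 under IFNγ and 1.08, 0.461, 0.780, 5.99 and 9.53 with vehicle in WT cells. KO cells thus stayed below WT cells under both treatments. Set against a floor of 3 counts over the KO vehicle libraries, H2-Aa was at least 1230-fold higher with IFNγ in KO cells, and the difference of responses in group means was at least 3.87 log2. Its adjusted p was 0.0223, and the call was lost without KO vehicle replicate 4 and with limma-voom. On the log2(CPM + 0.5) scale the within-batch differences were -0.47, -0.64 and 1.30, so the direction depends on how a level of 0 is treated. For Ciita, the class II transactivator, both scales also differed in sign: the fitted difference was 1.99 ± 0.64 (adjusted p = 0.0691) and the within-batch differences were -0.62, -1.30 and -0.73, with 12.4 ± 2.44 CPM in KO and 61.6 ± 37.3 in WT IFNγ libraries.

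All 22 tested GBP and IRG GTPases, which attack vacuoles of intracellular pathogens, rose in both lines, and 2 of them rose more in KO cells. Their median difference was 0.228. These families hold close paralogs, and reads may be shared between them. Gm12185, an IRG-family gene, rose by 5.77 in KO and 3.70 in WT cells, to 92.6 ± 37.6 and 31.3 ± 13.6 CPM, a difference of 2.07 ± 0.38 (adjusted p = 0.0029) with 1.49, 2.50 and 2.60 within batches. The difference for Gbp2 was -1.01 ± 0.70 (adjusted p = 0.439). Calhm6, a channel subunit induced by IFNγ in macrophages, had 20.1, 19.8, 16.5, 28.1 and 14.7 CPM under IFNγ and 0.180, 0, 0.129, 0 and 0.0809 with vehicle in KO cells, against 52.6, 52.7, 53.02, 59.8 and 86.4 under IFNγ and 3.28, 3.59, 3.12, 2.71 and 3.08 with vehicle in WT cells. KO libraries were below all WT libraries of the same treatment. Calhm6 rose by 7.87 in KO and 4.25 in WT cells, a difference of 3.62 ± 0.49 (adjusted p = 0.00030), and on the log2(CPM + 0.5) scale by 1.21, 1.60 and 0.10 within batches. Both promoters were picked from those of genes that rose more in KO cells. They held the interferon-stimulated response element GAAANNGAAA in the 120 bases before the start. That of Gm12185 also held the gamma-activated site TTCNNNGAA. In the sequences, from RefSeq on GRCm38.p6 and written 5′ to 3′ on the gene's strand, capitals mark these motifs.
Calhm6, chr10:34127973-34128092, minus strand: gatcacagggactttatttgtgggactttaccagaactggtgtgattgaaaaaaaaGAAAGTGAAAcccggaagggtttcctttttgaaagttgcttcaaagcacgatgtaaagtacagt
Gm12185, chr11:48927183-48927302, minus strand: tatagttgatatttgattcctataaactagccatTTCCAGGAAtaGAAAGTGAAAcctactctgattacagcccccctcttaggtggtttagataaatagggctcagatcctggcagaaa
Over 250 bases before the start and on both strands, GAAANNGAAA was found in 3.04% of 27025 promoters and TTCNNNGAA in 7.18%. Of the 71 promoters found for the 86 genes with a larger KO rise, 14.1% held GAAANNGAAA and 7.04% held TTCNNNGAA. Among GBP and IRG genes whose response was not called different, 10 of 12 promoters held GAAANNGAAA. Of antiviral interferon-stimulated genes, 0 of 2 promoters of called members held it, and 13 of 25 of members not called.

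Of 39 antiviral interferon-stimulated genes, 24 rose in KO and 17 in WT cells, and 3 fell in KO and 9 in WT cells, beside 21.8% and 29.9% of all tested genes that fell. Their response was more positive in KO cells for 3 and more negative for none, with a median of 0.321. The count more positive was 26 without the IFNγ libraries of batches 2 and 3, where 5371 of 14143 genes were called in either direction. It was 6 without KO IFNγ replicate 4, and 5 without WT IFNγ replicate 4 or replicate 5. Ifitm3, a membrane protein that blocks virus entry, had 86.7, 82.7, 81.5, 74.8 and 48.1 CPM under IFNγ and 8.12, 7.55, 6.81, 3.03 and 5.90 with vehicle in KO cells, against 80.3, 87.7, 83.9, 125 and 97.0 under IFNγ and 142, 113, 131, 31.2 and 90.4 with vehicle in WT cells. KO vehicle libraries lay far below all others, and the lines overlapped under IFNγ. Ifitm3 rose by 3.60 in KO cells, its WT response was 0.02, and the difference was 3.58 ± 0.40 (adjusted p = 4.9e-05) with 4.01, 2.42 and 2.82 within batches. That WT value joins unlike batches: WT libraries were lower with IFNγ in batch 1, higher in batch 2 and slightly higher in batch 3. Ifi44, another interferon-stimulated gene, had a rise of 1.61 in KO cells and a WT response of 0.02 (difference 1.59 ± 0.31, adjusted p = 0.0044). Dhx58, the RNA sensor LGP2, ran in opposite directions: it rose by 0.45 in KO cells and fell by 0.83 in WT cells (adjusted p of the difference = 0.00041).

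Complement and phagocytosis genes included 6 with a larger KO rise in log2, among them all 3 C1q chains. Of 27 tested genes 8 were more positive and 1 more negative, with a median of 0.687, and within batches 1, 2 and 3 the median was 0.90, -0.505 and 1.10. C1qb, a chain of the complement starter C1q, had 289, 281, 264, 279 and 225 CPM under IFNγ and 12.2, 8.47, 8.66, 2.29 and 2.30 with vehicle in KO cells, against 1375, 1384, 1385, 3623 and 1537 under IFNγ and 554, 535, 673, 303 and 287 with vehicle in WT cells. KO libraries were below every WT library of the same treatment, and within each batch KO cells under IFNγ stayed below WT cells without it. C1qb rose by 5.40 in KO and 2.06 in WT cells, a difference of 3.34 ± 0.51 (adjusted p = 0.00080) and 3.54, 3.07 and 3.91 within batches. The other C1q chains moved with it, with differences of 3.50 ± 0.62 for C1qa (adjusted p = 0.0025) and 3.10 ± 0.54 for C1qc (adjusted p = 0.0022). C1ra, the protease of the C1 complex, rose by 2.20 in KO and 1.14 in WT cells, with within-batch differences of 1.42, -0.28 and 1.10. Cd36, a scavenger receptor, rose by 4.95 and 3.37 to 218 ± 41.9 CPM in KO and 808 ± 285 CPM in WT cells. Mrc1, the mannose receptor, fell less in KO cells (-1.85 against -3.22), and Cfp, the complement stabilizer properdin, fell by 0.95 in WT cells with a KO response of 0.39. Fcgr2b, the inhibitory Fc receptor, was the exception, with a WT rise of 1.57, a KO response of 0.22 and a difference of -1.35 ± 0.32 (adjusted p = 0.0162). Aif1, which encodes the microglial marker IBA1, rose by 4.01 in KO and 2.28 in WT cells (difference 1.73 ± 0.38, adjusted p = 0.0096), to 55.2 ± 17.0 and 121 ± 59.2 CPM. Most of these genes were lower in KO cells throughout: 7 of the 9 called members were lower with vehicle and 7 were lower under IFNγ. Of all tested genes 14.8% were lower in KO cells with vehicle and 19.0% under IFNγ. For 5 of the 9 called members (55.6%) the differences in CPM and in log2 had opposite signs, against 4.14% of all called genes.

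**Figure D2:**
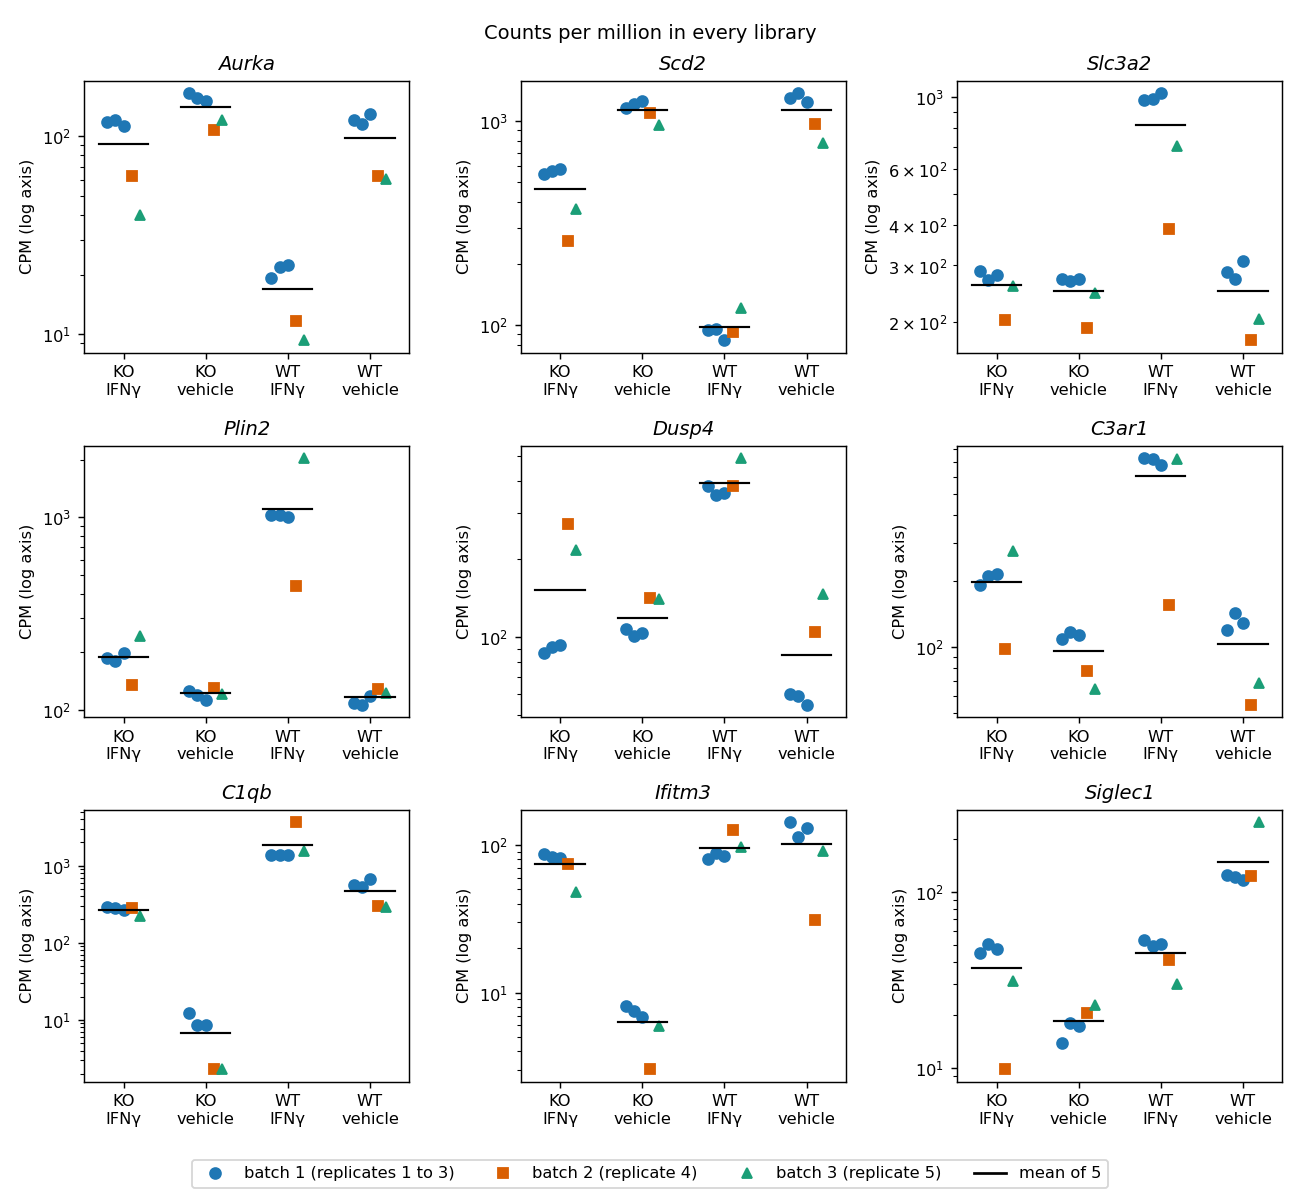
CPM (log axis) of 9 genes in every library, by group, with markers for batch and a bar at the mean of 5. Aurka and Scd2 stay higher in KO than in WT IFNγ libraries, Slc3a2, Plin2, Dusp4 and C3ar1 rise most in WT cells, C1qb and Ifitm3 start low in KO vehicle libraries, and Siglec1 falls in WT cells while 4 of 5 KO IFNγ libraries are above the KO vehicle libraries of their batch.

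Chemokine and cytokine genes split between the directions. Of 19 chemokine ligands 1 was more positive and 1 more negative (median 0.21), and of 36 inflammatory mediators 2 were more positive and 3 more negative (median 0.129), with 1 more negative without WT IFNγ replicate 5 and 1 to 4 more positive over the fits without 1 library. Ccl12, a ligand of CCR2 that attracts monocytes, had 59.3, 51.1, 56.6, 159 and 196 CPM under IFNγ and 1.01, 1.69, 1.64, 0.389 and 0.768 with vehicle in KO cells, against 97.2, 93.6, 95.7, 119.5 and 62.4 under IFNγ and 15.9, 16.2, 18.6, 5.18 and 9.47 with vehicle in WT cells. KO vehicle libraries were all below WT vehicle libraries, and under IFNγ KO libraries lay below WT in batch 1 and above in batches 2 and 3. Ccl12 rose by 6.56 in KO and 2.84 in WT cells, a difference of 3.72 ± 0.62 (adjusted p = 0.0016) and 2.40, 3.08 and 4.62 within batches. Ccl9 fell by 2.79 in KO cells and fell by 1.59 in WT cells (adjusted p of the difference = 0.0068). Cd274, the checkpoint ligand PD-L1, had 306, 297, 329.9, 1034 and 1987 CPM under IFNγ and 10.4, 11.7, 10.5, 12.1 and 12.6 with vehicle in KO cells, against 998, 953, 892, 2515 and 4341 under IFNγ and 8.61, 9.77, 7.34, 10.7 and 16.1 with vehicle in WT cells. Levels with IFNγ were higher in batches 2 and 3 than in batch 1 in both lines, and each KO library was below the WT libraries of its batch. Cd274 rose by 5.64 in KO and 7.26 in WT cells, a difference of -1.63 ± 0.40 (adjusted p = 0.0201) and -1.94, -1.46 and -0.79 within batches, and the call was lost without WT IFNγ replicate 5.

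Tnfsf10, the death ligand TRAIL, rose by 1.87 in KO cells with a WT response of -0.24 (adjusted p of the difference = 0.0022), and Osm, a cytokine of the IL-6 family, rose less, by 1.68 in KO and 2.60 in WT cells. The classical mediators had a wide spread across batches and no call. For Nos2, the inducible nitric oxide synthase, the difference was 0.33 ± 0.48 with -1.07, 0.64 and 3.65 within batches. For Tnf it was 0.24 ± 0.61, for Il6 0.96 ± 1.06 and for Il1b 0.33 ± 0.73. For Cxcl9 and Cxcl10, ligands of CXCR3, it was 2.81 ± 1.98 and 0.52 ± 0.41, with 0.15, -3.29 and -0.79 within batches for Cxcl9. Ptgs2, which encodes the prostaglandin synthase COX-2, had a fitted difference of -1.34 ± 0.40 (adjusted p = 0.0518) with -1.57, -2.16 and -0.02 within batches. Among 29 Toll-like receptor and NF-κB genes 2 were more positive and 1 more negative, with a median of 0.135. Of these, 1 to 4 were more positive over the fits without 1 library. Tlr8, an endosomal RNA receptor, fell by 2.98 in WT cells with a KO response of 0.28 (adjusted p of the difference = 0.0051). Cd14, the lipopolysaccharide coreceptor, rose by 1.22 in WT cells with a KO response of -0.24 (adjusted p of the difference = 0.0047).

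Chemoattractant receptors, many of which signal through the Gαi proteins that RGS10 acts on, included more genes with a more negative than with a more positive KO response. Of 21 tested receptors 6 were more negative and 1, P2ry12, was more positive (0 to 3 over the fits without 1 library), with a median of -0.67. Values of P2ry12 are not given here. Within batches 1, 2 and 3 the median was -0.34, -0.826 and -0.238. On plain library totals the count more negative was 3 and on batches 2 and 3 alone it was 0. C3ar1, the receptor of complement fragment C3a, had 193, 211, 217, 97.6 and 274 CPM under IFNγ and 108, 118, 114, 77.4 and 64.2 with vehicle in KO cells, against 732, 720.4, 682, 156 and 723 under IFNγ and 119.9, 143, 129, 54.5 and 68.5 with vehicle in WT cells. Each KO IFNγ library was below the WT libraries of its batch, and the batch 2 libraries were the lowest of the IFNγ libraries in both lines. C3ar1 rose by 0.98 in KO and 2.49 in WT cells, a difference of -1.51 ± 0.33 (adjusted p = 0.0094) and -1.58, -1.17 and -1.31 within batches. Cxcr4, the receptor of CXCL12, had 10.3, 8.94, 9.42, 15.04 and 11.7 CPM under IFNγ and 10.6, 12.5, 10.5, 28.1 and 26.8 with vehicle in KO cells, against 24.3, 24.8, 31.1, 24.1 and 33.0 under IFNγ and 14.4, 13.6, 11.3, 35.3 and 27.3 with vehicle in WT cells. KO IFNγ libraries lay below all WT IFNγ libraries, and vehicle libraries of batches 2 and 3 were high in both lines. In batch 2 the WT library was lower with IFNγ (24.1 CPM) than with vehicle (35.3 CPM), unlike in batches 1 and 3. Cxcr4 fell by 0.57 in KO cells and rose by 0.59 in WT cells, a difference of -1.16 ± 0.29 (adjusted p = 0.0218) and -1.22, -0.34 and -1.43 within batches, no longer called on plain library totals. Smaller rises in KO cells were also called for S1pr2, a sphingosine 1-phosphate receptor (0.48 in KO and 1.63 in WT cells, adjusted p = 0.00074), Ptafr, the platelet-activating factor receptor (1.49 and 3.07, adjusted p = 0.0137), and Ccrl2, which binds chemerin (2.03 and 3.17, adjusted p = 0.0201, no longer called on plain library totals). For Cx3cr1, the fractalkine receptor, the difference was 1.63 ± 0.53 (adjusted p = 0.0731) with 2.47, -1.21 and -0.64 within batches.

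Within the machinery of G protein signalling, Rgs1 rose less in KO cells and F2r moved in opposite directions in the lines. Of 11 tested RGS family members 1 was more positive, Rgs10 itself, and 1 more negative, and of 30 G protein subunits, kinases and arrestins 3 were more positive, a count that was 1 without WT vehicle replicate 2 or 5 or any batch 1 library of the other groups, and 0 on plain library totals. Rgs1, another regulator of Gαi signalling, rose by 4.04 in KO and 6.30 in WT cells, to 933 ± 759.6 CPM in KO and 1487 ± 728 CPM in WT cells, a difference of -2.26 ± 0.46 (adjusted p = 0.0067) with -3.12, -0.88 and -1.22 within batches. Gna15, a G protein alpha subunit of blood cells, fell by 0.73 in WT cells with a KO response of 0.20 (adjusted p of the difference = 0.0122), no longer called on plain library totals. F2r, the thrombin receptor PAR1, had 2.72, 3.03, 3.72, 3.07 and 2.33 CPM under IFNγ and 0.397, 0.803, 0.646, 1.13 and 0.566 with vehicle in KO cells, against 8.51, 10.2, 9.605, 12.5 and 4.89 under IFNγ and 10.9, 10.6, 10.5, 24.9 and 28.3 with vehicle in WT cells. KO cells were below WT cells under both treatments, and each line moved the same way in all 3 batches. F2r rose by 2.12 in KO cells and fell by 0.85 in WT cells, a difference of 2.98 ± 0.43 (adjusted p = 0.00055) and 1.90, 2.10 and 3.83 within batches. No gene of 20 tested for calcium entry through STIM and ORAI was called; their median was 0.00181.

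CD300 receptors, which tune myeloid activation, had more negative KO responses, and the sialic acid receptor Siglec1 rose in KO and fell in WT cells. Of 27 tested C-type lectin, Siglec and CD300 genes, 5 were more negative, all of them CD300 genes, and 1 more positive, with a median of -0.511. The count more negative was 8 without KO IFNγ replicate 5 and 0 on batches 2 and 3 alone. The CD300 genes lie in a cluster of paralogs, and reads may be shared. Cd300a, an inhibitory receptor, had 71.4, 70.3, 72.1, 53.6 and 105 CPM under IFNγ and 84.8, 79.1, 76.8, 70.3 and 85.1 with vehicle in KO cells, against 176, 173, 171, 176 and 181 under IFNγ and 60.7, 61.1, 71.3, 86.1 and 76.8 with vehicle in WT cells. WT IFNγ libraries lay above all others, and KO libraries overlapped between treatments. Cd300a rose by 1.30 in WT cells with a KO response of -0.11, a difference of -1.41 ± 0.18 (adjusted p = 0.00016) and -1.59, -1.42 and -0.93 within batches. Cd300lf rose by 2.37 in KO and 3.90 in WT cells and Cd300c2 by 1.09 and 2.69, while Cd300ld rose by 1.59 in WT cells with a KO response of 0.09. Cd300e fell more in KO cells in the fit (-5.58 against -3.08), with within-batch differences of -1.12, 0.30 and 0.54 on the log2(CPM + 0.5) scale. Siglec1, the macrophage receptor sialoadhesin, had 45.2, 50.7, 47.6, 9.88 and 31.3 CPM under IFNγ and 13.9, 18.2, 17.4, 20.5 and 22.8 with vehicle in KO cells, against 53.7, 49.2, 50.5, 41.0 and 30.3 under IFNγ and 124, 122, 117, 124 and 248 with vehicle in WT cells. It was higher with IFNγ in the KO libraries of batches 1 and 3 and lower in the KO library of batch 2. Siglec1 rose by 0.93 in KO cells and fell by 1.69 in WT cells, a difference of 2.62 ± 0.43 (adjusted p = 0.0013) and 2.75, 0.57 and 3.47 within batches. Maf, a transcription factor of resident macrophages, had 24.9, 28.6, 26.6, 7.95 and 50.2 CPM under IFNγ and 11.8, 14.4, 14.1, 7.70 and 3.44 with vehicle in KO cells, against 80.1, 73.1, 76.9, 26.6 and 129 under IFNγ and 125, 136, 133, 130.1 and 166 with vehicle in WT cells. All 5 KO IFNγ libraries lay above, and all 5 WT IFNγ libraries below, the vehicle libraries of their line and batch. Maf rose by 1.26 in KO cells and fell by 1.00 in WT cells, a difference of 2.25 ± 0.48 (adjusted p = 0.0083) and 1.74, 2.31 and 4.06 within batches.

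Mitotic genes fell under IFNγ in both lines, and less in KO cells: 19 of 38 fell in KO and 37 in WT cells, and none rose. In bulk RNA, fewer cells in mitosis and less RNA per cell cannot be told apart. Of the 38 tested mitosis and spindle genes 24 were more positive in KO cells, all as smaller falls, and none more negative. The median difference was 1.36, with a median response of -0.755 in KO and -2.13 in WT cells, and within batches 1, 2 and 3 the median difference was 1.27, 2.20 and 1.96. All 24 were higher in KO than in WT cells under IFNγ, where 20% of all tested genes were, and 3 were also higher with vehicle. The count was 37 without the IFNγ libraries of batches 2 and 3, where 5371 of 14143 genes were called in either direction. It was 13 without KO vehicle replicate 1, 2 or 3, 14 without WT vehicle replicate 5, and 11 on plain library totals.

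Aurka, the kinase Aurora A of centrosomes and spindle poles, had 118, 120.1, 113, 62.9 and 40.0 CPM under IFNγ and 164, 156, 151, 108 and 119.9 with vehicle in KO cells, against 19.3, 21.8, 22.4, 11.6 and 9.34 under IFNγ and 121, 115, 129, 62.9 and 60.4 with vehicle in WT cells. WT IFNγ libraries lay below all others, and the KO libraries of batches 2 and 3 lay further below their vehicle libraries than those of batch 1. With vehicle, KO libraries were above the WT libraries of their batch in every batch. Aurka fell by 0.73 in KO cells and fell by 2.53 in WT cells, a difference of 1.80 ± 0.19 (adjusted p = 4.9e-05) and 2.07, 1.62 and 1.06 within batches. Ccnb2, a cyclin that drives entry into mitosis, had 75.2, 72.5, 71.6, 49.8 and 14.2 CPM under IFNγ and 133, 129, 125, 117 and 104 with vehicle in KO cells, against 22.4, 23.5, 24.2, 4.21 and 1.98 under IFNγ and 143, 146, 145, 121 and 118 with vehicle in WT cells. Vehicle libraries of the lines overlapped over all batches, with KO below WT within each batch. Each KO IFNγ library was above the WT IFNγ libraries of its batch. Ccnb2 fell by 1.30 in KO cells and fell by 3.43 in WT cells, a difference of 2.13 ± 0.51 (adjusted p = 0.0170) and 1.79, 3.46 and 2.75 within batches, no longer called on plain library totals. Ccnb1, the partner cyclin of CDK1, fell by 0.83 in KO cells and fell by 2.47 in WT cells (adjusted p of the difference = 0.0031). Plk1, a mitotic kinase, fell by 1.36 in KO cells and fell by 3.31 in WT cells, and Bub1b, of the spindle checkpoint, fell by 0.96 in KO cells and fell by 1.81 in WT cells. With a called fall in WT but not in KO cells were Tpx2, the activator of Aurora A, with responses of -0.25 in KO and -1.41 in WT cells (difference 1.16 ± 0.16, adjusted p = 0.00044), Cdc25b, the phosphatase that activates CDK1, with -0.18 and -1.63 (adjusted p = 0.0012), and Ube2c, the ubiquitin-conjugating enzyme of anaphase, with -0.86 and -3.11 (adjusted p = 0.0137).

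Promoters of mitotic genes are known for CCAAT boxes, bound by NF-Y, and for the cell cycle homology element TTTGAA. The 120 bases before the start are shown for 3 of the members described, with CCAAT and, in Ube2c, TTTGAA in capitals on either strand (ATTGG and TTCAAA are the opposite-strand forms).
Ccnb2, chr9:70421555-70421674, minus strand: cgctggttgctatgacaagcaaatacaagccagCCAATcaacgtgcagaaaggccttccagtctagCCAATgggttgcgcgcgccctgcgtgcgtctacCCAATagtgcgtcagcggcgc
Aurka, chr2:172370571-172370690, minus strand: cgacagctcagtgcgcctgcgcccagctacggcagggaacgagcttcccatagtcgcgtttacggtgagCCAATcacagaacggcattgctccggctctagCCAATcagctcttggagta
Ube2c, chr2:164769809-164769928, plus strand: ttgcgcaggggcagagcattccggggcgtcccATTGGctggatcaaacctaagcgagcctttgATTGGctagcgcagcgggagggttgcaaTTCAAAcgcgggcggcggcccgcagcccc
CCAAT stood at 87, 54 and 21 bases before the start in Ccnb2 and at 51 and 19 in Aurka. In the 250 bases before the start, 17 of the 20 promoters found for called mitotic genes held CCAAT (85.0%), as did 8 of 12 for mitotic genes not called (66.7%), beside 34.5% of all promoters and 36.7% of those of tested genes. TTTGAA was found in 30.0% of the called and 33.3% of the uncalled members, beside 16.3% of all promoters.

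**Figure D3:**
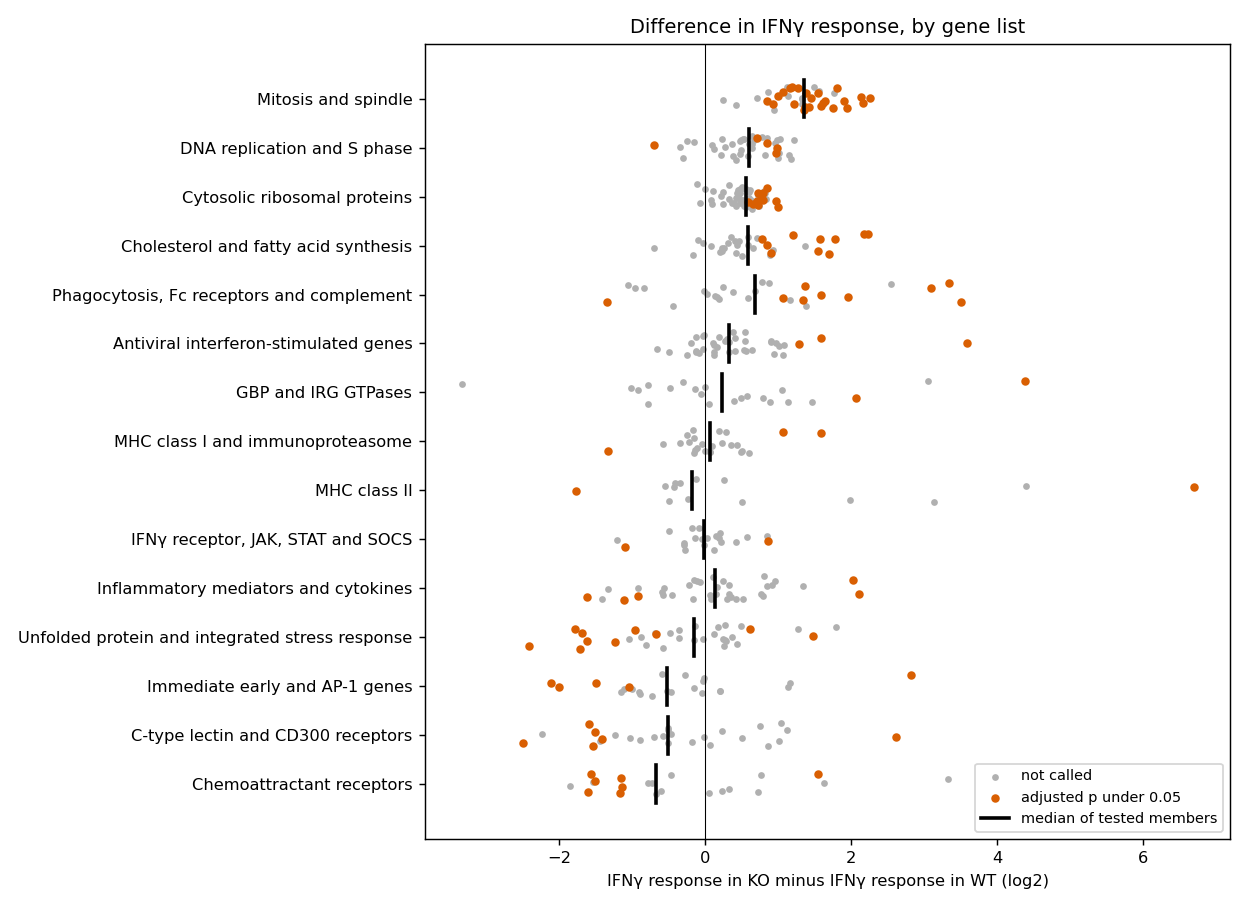
Difference in IFNγ response (KO minus WT, log2) of each tested member of 15 gene lists, with called members in orange and the median as a black bar. The mitosis list has 24 of 38 members called, all above 0, and the chemoattractant receptor list 7 of 21 called, 6 of them below 0.

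Other growth genes followed with smaller differences. Of 41 DNA replication and S phase genes, 4 were more positive and 1 more negative, with a median of 0.601; the count more positive was 1 when any 1 of the 6 batch 1 KO libraries was left out, 2 without WT vehicle replicate 3 or 5, 8 without KO IFNγ replicate 5 and 12 without KO vehicle replicate 5. Pold1, the catalytic subunit of DNA polymerase delta, fell by 0.68 in KO cells and fell by 1.65 in WT cells (adjusted p of the difference = 0.0191, no longer called on plain library totals). Of 55 cytosolic ribosomal protein genes 11 were more positive and none more negative, with a median of 0.558, and leaving out 16 of the 20 libraries moved the count over 1.5 times, between 2 (without WT vehicle replicate 5) and 39 (without KO IFNγ replicate 5). Rps6, a protein of the small ribosomal subunit, had 597, 543, 527, 586 and 273 CPM under IFNγ and 681, 654, 641, 648 and 606 with vehicle in KO cells, against 215, 262, 239, 329 and 219 under IFNγ and 619, 591, 659, 676 and 635 with vehicle in WT cells. Vehicle libraries overlapped, and under IFNγ the KO library of batch 3 was the only one as low as WT cells. Rps6 fell by 0.38 in KO cells and fell by 1.35 in WT cells, a difference of 0.96 ± 0.20 (adjusted p = 0.0081) and 1.14, 0.89 and 0.38 within batches.

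Sterol and fatty acid synthesis also fell less in KO cells, mainly in batch 1. Of 33 tested genes 10 were more positive and none more negative, with a median of 0.581, but within batches 1, 2 and 3 the median was 0.96, -0.195 and -0.049, and no member was called on batches 2 and 3 alone. All 10 were higher in KO than in WT cells under IFNγ. Scd2, a stearoyl-CoA desaturase, had 549, 571, 582, 257 and 370.2 CPM under IFNγ and 1154, 1207, 1257, 1099 and 956 with vehicle in KO cells, against 93.9, 95.3, 84.1, 91.9 and 121 under IFNγ and 1306, 1369, 1236, 968 and 780.2 with vehicle in WT cells. Vehicle libraries overlapped, and every KO IFNγ library was above every WT IFNγ library. Scd2 fell by 1.32 in KO cells and fell by 3.50 in WT cells, a difference of 2.18 ± 0.25 (adjusted p = 4.9e-05) and 2.75, 1.30 and 1.32 within batches. Fdps, the farnesyl diphosphate synthase of the mevalonate pathway, had 246, 236, 246, 229 and 75.8 CPM under IFNγ and 358, 341, 333, 321 and 339 with vehicle in KO cells, against 35.8, 43.2, 39.0, 50.7 and 27.5 under IFNγ and 321, 303, 348, 142 and 133 with vehicle in WT cells. WT vehicle libraries of batches 2 and 3 were low, as was the KO IFNγ library of batch 3. Fdps fell by 0.83 in KO cells and fell by 2.61 in WT cells, a difference of 1.78 ± 0.32 (adjusted p = 0.0027) and 2.53, 0.99 and 0.09 within batches. Insig1, which holds the sterol-sensing SREBP complex in the endoplasmic reticulum, fell by 1.93 in WT cells with a KO response of 0.31, and its difference held in each batch (2.14, 2.04 and 1.47). Cyp51, of the cholesterol pathway, differed by 1.202 ± 0.27 in the fit, but by 1.91, 0.01 and -0.05 within batches.

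Several lipid storage and stress response genes rose in WT cells and rose less, or without a call, in KO cells. Plin2, the coat protein of lipid droplets, had 185, 178, 198, 135 and 241 CPM under IFNγ and 124, 119, 112, 130.02 and 121 with vehicle in KO cells, against 1034, 1025, 1006, 441 and 2041 under IFNγ and 108, 106, 117, 128 and 122 with vehicle in WT cells. Every WT IFNγ library was above every KO library, and WT values varied most between batches. Plin2 rose by 0.59 in KO and 3.15 in WT cells, a difference of -2.57 ± 0.30 (adjusted p = 6.6e-05) and -2.55, -1.73 and -3.07 within batches. In its list of cholesterol efflux and LXR genes, 1 of 18 was more positive (0 or 1 over the fits without 1 library) and 2 were more negative (1 to 4). Of 33 unfolded protein and integrated stress response genes 8 were more negative and 2 more positive (0 to 4 over the fits without 1 library; median -0.156), and the count more negative was 4 without WT vehicle replicate 1 or 2 or KO vehicle replicate 1 or 2, 5 without WT IFNγ replicate 5 or KO vehicle replicate 3, and 0 on batches 2 and 3 alone. Slc3a2, the shared heavy chain of amino acid transporters, had 288, 271, 281, 204 and 259 CPM under IFNγ and 272, 269, 272, 191 and 246 with vehicle in KO cells, against 983, 985, 1029, 388 and 706 under IFNγ and 286, 272, 309, 176 and 205 with vehicle in WT cells. KO libraries overlapped between treatments, and WT IFNγ libraries lay above all others. Slc3a2 rose by 1.68 in WT cells with a KO response of 0.06, a difference of -1.61 ± 0.18 (adjusted p = 4.9e-05) and -1.74, -1.05 and -1.71 within batches.

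Atf4, the central transcription factor of the integrated stress response, had 615, 587, 591, 514 and 573 CPM under IFNγ and 654, 638, 613, 420.0 and 561 with vehicle in KO cells, against 655, 664, 673, 732 and 1026 under IFNγ and 382, 361, 431, 228 and 215 with vehicle in WT cells. KO vehicle libraries were above the WT vehicle libraries of their batch in all 3 batches, and KO values overlapped between treatments. Atf4 rose by 1.25 in WT cells with a KO response of 0.01, a difference of -1.24 ± 0.24 (adjusted p = 0.0044) and -0.85, -1.39 and -2.22 within batches. Ddit3, the ATF4 target CHOP, rose by 1.30 in KO and 3.02 in WT cells (adjusted p of the difference = 0.0090). Nupr1, a stress-induced chromatin protein, rose by 2.16 in WT cells with a KO response of 0.48 (adjusted p of the difference = 0.0191), with no call when batch 3 was left out. The Nupr1 promoter is shown because it holds the core of an amino acid response element, TGATGNAA, a motif bound by ATF4 with its partners, in capitals on the opposite strand at 110 bases before the start.
Nupr1, chr7:126625471-126625590, minus strand: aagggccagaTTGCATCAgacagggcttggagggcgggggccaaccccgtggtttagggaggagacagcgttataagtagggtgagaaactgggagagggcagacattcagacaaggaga
TGATGNAA was found in 1 of 10 promoters of called stress response genes and 3 of 20 of those not called, beside 3.53% of all promoters. Among 27 NRF2 targets and antioxidant genes 1 was more positive and 2 more negative: Hmox1, heme oxygenase, rose by 1.48 in KO and 2.69 in WT cells, and Osgin1 rose by 1.53 in WT cells with a KO response of 0.13. In the glycolysis list 2 of 27 were more positive and 3 more negative. The count more positive ran from 0 (without WT IFNγ replicate 1, among others) to 4 (without KO IFNγ replicate 4), moving over 1.5 times in 13 of 20 fits without 1 library. Hk3, a hexokinase of myeloid cells, rose by 2.25 in KO and 3.24 in WT cells (adjusted p of the difference = 0.0029), although its level under IFNγ was 2139 ± 709.9 CPM in KO and 1585 ± 580.2 CPM in WT cells. Vegfa, the angiogenic growth factor, rose by 0.61 and 1.83 in KO and WT cells. Sesn1, a p53 target, fell by 1.06 in KO cells and fell by 2.38 in WT cells (adjusted p of the difference = 0.0012), 1 of 2 calls among 25 p53 targets.

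Immediate early and AP-1 genes rose in both lines, 14 of 23 in KO and 17 in WT cells. Of these 23 tested genes 4 were more negative and 1 more positive, with a median of -0.523 and within-batch medians of -1.05, 0.89 and -0.292, and 7 were more negative without KO IFNγ replicate 4. Dusp4, a nuclear phosphatase that turns off ERK, had 86.6, 91.4, 92.7, 271 and 215 CPM under IFNγ and 108, 100.5, 103, 142 and 139.8 with vehicle in KO cells, against 380.5, 352, 358, 383 and 489.6 under IFNγ and 60.1, 59.2, 54.7, 105 and 146 with vehicle in WT cells. In KO cells IFNγ libraries lay below vehicle libraries in batch 1 and above them in batches 2 and 3. Dusp4 rose by 2.33 in WT cells with a KO response of 0.22, a difference of -2.11 ± 0.26 (adjusted p = 0.00016) and -2.84, -0.93 and -1.12 within batches. Dusp1 rose by 3.81 in KO and 5.81 in WT cells and Ier3 by 0.54 and 1.58. Klf4, a zinc finger factor of monocytes, had 17.3, 17.9, 16.4, 9.59 and 11.7 CPM under IFNγ and 33.6, 39.3, 36.1, 32.7 and 23.2 with vehicle in KO cells, against 14.2, 13.6, 14.1, 4.76 and 19.1 under IFNγ and 9.47, 9.26, 9.32, 9.44 and 14.5 with vehicle in WT cells. KO vehicle libraries lay above all others. Klf4 fell by 1.21 in KO cells with a WT response of 0.28, a difference of -1.50 ± 0.33 (adjusted p = 0.0101) and -1.61, -0.80 and -1.35 within batches, no longer called on plain library totals. Klf2, its relative, was the 1 more positive: it fell by 1.94 in WT cells with a KO response of 0.87 (adjusted p of the difference = 0.0130).

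Motility genes of matrix, adhesion and the cytoskeleton were split. In the actin and small GTPase list 4 of 42 were more positive and 1 more negative (median 0.0848). In the integrin and adhesion list 2 were more positive and 4 more negative of 28 (median 0.0198, with 7 more negative without KO vehicle replicate 5, and 1 to 5 more positive over the fits without 1 library). In 11 of those 20 fits the integrin count more positive moved over 1.5 times. The matrix and protease list had 3 of 24 called each way (median -0.0492). Rhoc, a small GTPase of cell migration, had 295, 247, 271, 544 and 539 CPM under IFNγ and 196, 202, 194, 226 and 189.9 with vehicle in KO cells, against 378, 369, 379.6, 921 and 664 under IFNγ and 77.1, 71.7, 88.5, 128 and 159 with vehicle in WT cells. KO vehicle libraries were above all WT vehicle libraries, and under IFNγ each KO library was below the WT libraries of its batch. Rhoc rose by 0.80 in KO and 2.33 in WT cells, a difference of -1.54 ± 0.23 (adjusted p = 0.00074) and -1.79, -1.57 and -0.56 within batches. Marcksl1, an actin-binding substrate of protein kinase C, fell by 1.43 in KO cells and fell by 2.73 in WT cells, and Itga4, the alpha 4 integrin, fell by 1.40 in KO cells and fell by 2.61 in WT cells. Lgals3, the lectin galectin-3, rose by 1.66 in KO and 2.80 in WT cells, and Alcam, an adhesion molecule, by 0.94 and 2.11. Plau, the urokinase plasminogen activator, rose by 1.90 in KO and 3.87 in WT cells, with within-batch differences of -2.78, -1.26 and 0.24. Mmp12, macrophage elastase, rose by 3.61 in KO and 8.12 in WT cells, with -6.32, -3.07 and 0.60 within batches: its KO vehicle level of 99.1 ± 16.9 CPM exceeded the WT vehicle level of 15.02 ± 16.05 CPM. Spp1, osteopontin, rose by 2.06 in KO cells with a WT response of 0.36, to 5494 ± 4659 CPM in KO and 13864 ± 9822 CPM in WT cells. Thbs1, thrombospondin, rose by 3.57 in KO cells with a WT response of 0.20, at levels of 1.29 ± 1.34 and 3.16 ± 2.90 CPM.

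Several of the genes with the largest difference in their class were at low levels. Olfm4, a secreted glycoprotein, had 0.138, 0.0704, 0.214, 0 and 0 CPM under IFNγ and 6.42, 7.27, 7.32, 8.01 and 7.40 with vehicle in KO cells, against 0, 0, 0.194, 0 and 0 under IFNγ and 0, 0, 0, 0.0576 and 0.0560 with vehicle in WT cells. It was present in KO vehicle libraries and nearly absent elsewhere. Olfm4 fell by 6.27 in KO cells, its WT response rests on a few reads, and the difference (adjusted p = 0.0116, -3.71, -3.93 and -3.83 within batches on the log2(CPM + 0.5) scale) was not called without WT IFNγ replicate 3. Cbr2, a carbonyl reductase and the more positive gene of the NRF2 list, had 0.275, 0.457, 0.300, 1.42 and 0.0582 CPM under IFNγ and 1.95, 0.843, 1.38, 2.68 and 1.74 with vehicle in KO cells, against 0.298, 0.459, 0.271, 0.312 and 0 under IFNγ and 13.9, 12.8, 16.9, 32.1 and 32.0 with vehicle in WT cells. Both lines were near 0 under IFNγ, and WT cells were far higher with vehicle. Cbr2 fell by 1.90 in KO cells and fell by 6.09 in WT cells, a difference of 4.20 ± 0.67 (adjusted p = 0.0011) and 3.03, 4.60 and 4.02 within batches. Ighm, the immunoglobulin mu heavy chain, fell by 1.24 in KO cells and fell by 5.84 in WT cells, with 24.3 ± 18.0 CPM under IFNγ and 51.5 ± 28.0 with vehicle in KO cells, against 0.0890 ± 0.0757 and 4.65 ± 1.91 in WT cells. Kmo, the kynurenine monooxygenase of tryptophan breakdown, fell by 1.47 in KO cells and fell by 4.98 in WT cells (adjusted p of the difference = 0.0019).

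Opposite responses with both lines called were found for Hap1, huntingtin-associated protein (0.78 in KO and -1.90 in WT cells, adjusted p of the difference = 0.00044), Cp, the copper carrier ceruloplasmin (0.74 and -1.79, adjusted p = 0.00086), and Hpse, heparanase (1.41 and -1.95, adjusted p = 0.0020), each a rise in KO and a fall in WT cells. Falls in KO cells with a WT response that was not called were found for Sdc1, the proteoglycan syndecan-1 (-1.29 in KO cells, WT response 0.26), and B230312C02Rik (-2.47 in KO cells, WT response 0.40, difference -2.87 ± 0.29, adjusted p = 4.2e-05). Rises smaller in KO cells included Arc, an immediate early gene (1.15 in KO and 4.16 in WT cells), and Rhov, a small GTPase (3.46 and 6.01). Hyal1, a hyaluronidase, rose by 1.89 in WT cells with a KO response of -1.34, and neither Rhov nor Hyal1 was called by limma-voom. Ptgis, prostacyclin synthase, rose by 4.57 in KO cells with a WT response of 0.48, with no call when batch 3 was left out.

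**Figure D4:**
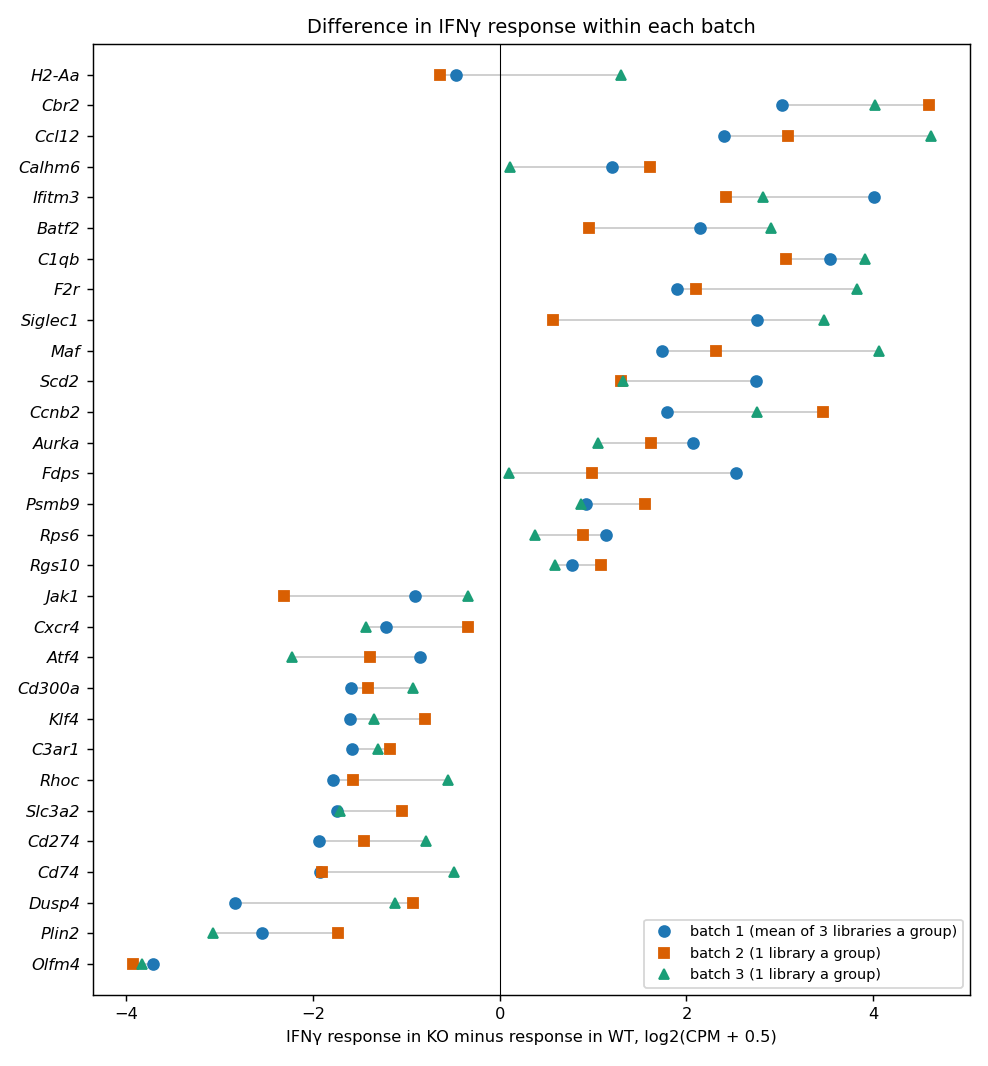
Difference in IFNγ response (KO minus WT, log2(CPM + 0.5)) within each batch for the 30 genes given library by library, from the most positive fitted difference at the top to the most negative at the bottom. All 3 batches fall on 1 side of 0 for 29 of the 30 genes. These genes were chosen after their values were seen, some by a rule requiring 1 sign in all batches. Of all called genes 87.2% had 1 sign in all 3 batches, as did 31.6% of all tested genes. The exception, H2-Aa, without reads in KO vehicle libraries, has -0.47 and -0.64 in batches 1 and 2 and 1.30 in batch 3.

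Signs of library quality moved with the groups, and their part in these differences was not tested. Malat1 had 53.2, 54.0, 59.4, 1625 and 1143 CPM under IFNγ and 56.1, 48.2, 67.5, 120.4 and 52.3 with vehicle in KO cells, against 370.1, 361, 338, 2389 and 1251 under IFNγ and 81.5, 68.3, 63.8, 152 and 88.8 with vehicle in WT cells. In batch 1 it was higher with IFNγ in WT but not in KO cells, and in batches 2 and 3 it was high with IFNγ in both. The fitted difference was -0.87 ± 0.76 (adjusted p = 0.557), with -2.35, -0.22 and 0.63 within batches. Of 9 nuclear retained RNAs tested 1 was more negative in KO cells, and of 12 mitochondrially encoded genes none was called, with a median of -0.392 and within-batch medians of -1.04, 1.21 and -0.225. In the remaining lists the calls were, for homeostatic microglia markers 1 more positive and 1 more negative of 19, disease-associated microglia markers 2 and 2 of 24, macrophage and microglia markers 2 and 0 of 12, lysosomal hydrolases 1 and 1 of 34, and nuclear-encoded respiratory chain genes 0 and 1 of 42. For disease-associated microglia markers the counts ran from 1 to 3 and from 1 to 5 over the fits without 1 library. With a batch by treatment term, where 2360 of 13755 genes were called, 10 of these markers were more negative. No tested marker of astrocytes, oligodendrocytes, neurons, lymphocytes, dendritic cells or neutrophils was called.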

How the data were processed

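Reads were processed by the authors with FastQC, Trim Galore, STAR and DESeq2 on GRCm39, per the submitters' processing notes, with versions, counting tool and strand setting not given in the sources used here. The deposited table held whole-number counts per Ensembl gene ID, not normalized, for 56941 IDs (51948, or 91.2%, with a symbol) in 20 columns. Library depth of 15866749 to 29157740 counts gives moderate and high genes little counting error, so spread between libraries dominates.

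Genes were filtered with filterByExpr, scaled by TMM and tested with edgeR 4.0.16 (R 4.3.3; quasi-likelihood F test, robust, with a mean per group and batch as covariate) over all 20 libraries. Adjusted p-values are Benjamini-Hochberg over 13755 genes, with 0.05 as the threshold. Response classes came from the sign and call of each line's response in the same fit. CPM are counts per 1000000 of TMM-scaled library size; errors are SD over 5 libraries, or SE for fitted log2 differences. Within-batch differences used mean log2(CPM + 0.5). A floor of 3 counts over a group replaced levels of 0. The script was tested on simulated data. Alternatives were DESeq2 1.42.0, limma-voom (limma 3.58.1), other scaling, filters, covariates and libraries.

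Genes and lists were chosen with earlier results of these data known. Named genes were a panel, the 6 called genes of largest difference per class (at least 5 CPM in a group, 1 sign in all batches), and up to 2 per list and direction. Of 124 such genes 91 are described, and 22 others were chosen after their values were seen: Ccnb2, Ifi44, Ptafr, Ccrl2, Ier3, C1ra, Cfp, Mrc1, Cd36, Cd300lf, Cd300c2, Cd300e, Thbs1, Ube2c, Ccnb1, Cdc25b, Bub1b, Plk1, Cyp51, Insig1, Ddit3 and Nupr1. Which genes are given library by library was also chosen after their values were seen. Some genes of the rule are not reported here.

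Beyond the shared batches of replicates 4 and 5, replicate numbers are not pairs: within batch 1, libraries sharing a number correlated at -0.089 to 0.07 in their deviations. No libraries agreed within sampling noise. Promoters came from RefSeq (GRCm38.p6), matched by symbol, for sequence only.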

Additional observations from a re-analysis of the deposited data

Results flagged for a closer look

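The difference between the lines in the IFNγ response (KO minus WT, log2) passed the test of the interaction for 95 genes described here. Among genes of the receptor, transcription factors and antigen presentation, the difference was 0.84 for Rgs10, -1.100 for Jak1, 3.36 for Batf2, 6.69 for H2-Aa, -1.77 for Cd74, 1.06 for Psmb9, 1.59 for H2-Q7 and -1.34 for Tapbpl. For interferon-induced genes and complement, the difference was 2.07 for Gm12185, 3.62 for Calhm6, 3.58 for Ifitm3, 1.59 for Ifi44, 1.28 for Dhx58, 3.501 for C1qa, 3.34 for C1qb, 3.097 for C1qc and 1.06 for C1ra. Phagocytosis and microglial genes had differences of 1.34 for Cfp, 1.37 for Mrc1, 1.59 for Cd36, -1.35 for Fcgr2b, 1.73 for Aif1, 2.62 for Siglec1, 2.25 for Maf and 2.98 for F2r. Cytokine, chemokine and pattern receptor genes had differences of 3.72 for Ccl12, -1.204 for Ccl9, -1.63 for Cd274, 2.11 for Tnfsf10, -0.92 for Osm, 3.27 for Tlr8 and -1.45 for Cd14. In chemoattractant receptors and regulators of G proteins it was -1.51 for C3ar1, -1.16 for Cxcr4, -1.15 for S1pr2, -1.57 for Ptafr, -1.14 for Ccrl2, -2.26 for Rgs1 and 0.93 for Gna15. CD300 genes had differences of -1.41 for Cd300a, -1.53 for Cd300lf, -1.59 for Cd300c2, -1.51 for Cd300ld and -2.503 for Cd300e. Mitotic genes had differences of 1.804 for Aurka, 2.13 for Ccnb2, 1.64 for Ccnb1, 1.95 for Plk1, 0.85 for Bub1b, 1.16 for Tpx2, 1.45 for Cdc25b and 2.25 for Ube2c. Other growth and sterol genes had differences of 0.97 for Pold1, 0.96 for Rps6, 2.18 for Scd2, 1.78 for Fdps, 2.23 for Insig1 and 1.202 for Cyp51. For lipid droplet, stress and metabolic genes it was -2.57 for Plin2, -1.61 for Slc3a2, -1.24 for Atf4, -1.72 for Ddit3, -1.68 for Nupr1, -1.21 for Hmox1, -1.398 for Osgin1, -0.996 for Hk3, -1.21 for Vegfa and 1.32 for Sesn1. Immediate early genes had differences of -2.11 for Dusp4, -2.004 for Dusp1, -1.04 for Ier3, -1.498 for Klf4, 2.81 for Klf2 and -3.003 for Arc. Genes of motility, adhesion and matrix had differences of -1.54 for Rhoc, -2.56 for Rhov, 1.29 for Marcksl1, 1.21 for Itga4, -1.14 for Lgals3, -1.17 for Alcam, -1.97 for Plau, -4.51 for Mmp12, 1.69 for Spp1, 3.37 for Thbs1 and 3.36 for Hpse. Among the largest of each class it was -7.18 for Olfm4, 4.199 for Cbr2, 4.604 for Ighm, 3.51 for Kmo, 2.68 for Hap1, 2.54 for Cp, -1.55 for Sdc1, -2.87 for B230312C02Rik, -3.24 for Hyal1 and 4.099 for Ptgis.

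Among the 30 genes given library by library, 120 groups of 5 libraries were examined for a single library far from the rest, and 17 were found in 15 genes, 16 of them in a library of batch 2 or 3. Chance alone marks about 1 in 20 such groups, and batches 2 and 3 hold 1 library per group each. KO IFNγ replicate 4 stood apart for Rgs10 (50.5 CPM). KO IFNγ replicate 5 stood apart for Jak1 (448 CPM), Psmb9 (122 CPM), Fdps (75.8 CPM) and Rps6 (273 CPM). WT IFNγ replicate 4 stood apart for Rgs10 (49.97 CPM), H2-Aa (991 CPM), Psmb9 (111 CPM), C1qb (3623 CPM) and C3ar1 (156 CPM). WT IFNγ replicate 5 stood apart for Calhm6 (86.4 CPM), Atf4 (1026 CPM) and Dusp4 (489.6 CPM). WT vehicle replicate 5 stood apart for Siglec1 (248 CPM), Maf (166 CPM) and Klf4 (14.5 CPM), and WT IFNγ replicate 3 for Olfm4 (0.194 CPM), where no other WT IFNγ library had a read. What set these libraries apart was not tested.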

How the results depend on the processing

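Counts of genes depended on how batch was treated more than on the tool. Called genes numbered 537 on plain library totals, 1480 with DESeq2, 138 with no batch term, 530 with the replicate block, 2360 with a batch by treatment term, 3477 with a batch by genotype term added, 7096 on batch 1 alone and 121 on batches 2 and 3 alone. Among alternatives chosen after seeing the data there were 5371 without the IFNγ libraries of batches 2 and 3, 1906 without batch 2 and 1631 without batch 3. In the order no filter, DESeq2, no batch term, replicate block, batch by treatment, genotype term added, batch 1, batches 2 and 3, without those IFNγ libraries and without batch 2, responses larger in KO cells numbered 224, 213, 25, 70, 328, 561, 1072, 34, 775 and 278. Smaller responses numbered 412 on plain totals, then from DESeq2 onward 1198, 101, 427, 1895, 2693, 5328, 78, 4214 and 1526, and 1397 without batch 3. Opposite responses numbered 29 on plain totals, 12 with no batch term, 135 with both batch interactions, 624 on batch 1, 9 on batches 2 and 3, 268 without those IFNγ libraries, 94 without batch 2 and 71 without batch 3. Without single libraries the ranges were 542 to 1448 called (lower by over 1.5 times without any 1 of KO IFNγ or KO vehicle replicates 1 to 3, higher by over 1.5 times without KO IFNγ replicate 4 or 5), 77 to 195 larger, 429 to 1217 smaller and 32 to 68 opposite. RLE scaling (905 called) and limma-voom (1034) stayed within 1.5 times. Calls more positive were 60.3% on plain totals, 50.7% with no batch term and 86% on batches 2 and 3 alone, against 55.9%.

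Signs turned for 11 of the genes described here, of which Cyp51 was called. On batches 2 and 3 alone the difference was -2.06 for Cxcl9, -0.37 for Cxcl10, -1.28 for Cx3cr1, 0.19 for Malat1, -0.023 for Cyp51 and -0.15 for Tnf. On batch 1 alone it was 0.016 for Ifngr2, 0.22 for Jak2, -0.96 for Nos2, -0.046 for Tnf, -0.20 for Il6 and -1.41 for Il1b. Without the IFNγ libraries of batches 2 and 3 it was 0.45 for Jak2, -0.42 for Tnf, -0.020 for Il6 and -1.14 for Il1b. Jak2 was also at 0.14 on plain totals, 0.0056 with no filter, 0.10 with limma-voom, 0.055 and 0.041 with the batch interactions and 0.27 without batch 2. Tnf was at -0.20 with limma-voom and -0.11 with either batch interaction, Il1b at -0.042 with batch by treatment, and without batch 3 Nos2 was at -0.50 and Il1b at -0.62. Without single libraries Jak2 ranged from -0.20 to 0.22, Nos2 from -0.051 to 0.51, Tnf from -0.34 to 0.51, Il6 from -0.021 to 1.49 and Il1b from -0.69 to 0.65. The cause was not tested.

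Replicates 4 and 5 share a batch across groups, and within batch 1 the numbers pair no libraries. With the replicate block 530 genes were called, each among the 894, and of the genes described here Rgs10 and Jak1 lost their calls. Depth limits H2-Aa, Olfm4 and other genes with a group at or near 0 reads, whose fitted size depends on the prior count. With 1 library per group in batches 2 and 3, neither has a spread of its own. Protein was not measured.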
